A study of Homo sapiens with 4 samples.

Results

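The genes described here are 10 sensors and targets of the hypoxia pathway, chosen by name: the transcription factor subunits HIF1A and EPAS1, the hydroxylase EGLN3, the secreted peptides VEGFA and ADM, the enzyme CA9, and BNIP3, NDRG1, DDIT4 and ANKRD37. They are 10 of the 60564 genes in the count files, and 10 of 10 passed the filter on low counts that left 22555 genes for testing. RNA was compared between Elf1 cells, an established naïve human ESC line, in 2 culture conditions with 2 biological replicates each. 2-D grown cells were adherent on Matrigel-coated plastic. 3-D grown cells were encapsulated as single cells in self-assembling PEG-8-SH/PEG-8-Acr scaffolds and kept there for 21 days. Both conditions used the same ESC expansion medium. Before the experiment the line was maintained on mouse feeder cells, and the labels name Matrigel for the 2-D libraries. The oxygen level of the cultures is not given in the sources used here, a single cell line was studied, and culture format and time in culture changed together, so their parts cannot be told apart.

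Hypoxia-inducible factors (HIFs) are dimers of an oxygen-regulated α subunit and the stable β subunit ARNT. In the presence of oxygen, the prolyl hydroxylases of the EGLN family mark the α subunit, which VHL then directs to degradation, and when oxygen is short the α subunit accumulates and binds DNA at a short core sequence near genes for glycolysis, blood vessel growth, pH balance and mitochondrial turnover. The α subunits are therefore controlled mainly as proteins, which were not measured here, whereas RNA of the targets is the usual transcriptional readout of the pathway.

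The core read by HIF is spelled ACGTG or GCGTG. RefSeq (GRCh38.p14) gives the 250 bases before the transcription start for 8 of the 10 genes, in 9 windows, and 7 of these 8 genes have at least 1 of the 2 spellings on either strand. HIF1A has 2 windows, 1 of them without a match, so 7 of the 9 windows hold a match. Of 35116 such windows over all genes, 18.5% hold ACGTG, 32.2% hold GCGTG and 43.2% hold either. The 10 genes were chosen by name as pathway genes, and the difference from these shares was not tested. The windows of BNIP3, ANKRD37 and DDIT4 are shown because they hold the most matches among the 8 genes with a window and because BNIP3 is the gene that passed the test below. For CA9, a stretch of 25 bases around its only match is shown. Each is written 5′ to 3′ on the strand of the gene. The windows of BNIP3, ANKRD37 and DDIT4 are without bases that lie in an exon, while the CA9 stretch was not checked for exons. Capitals mark a match on either strand. The palindrome in the windows of BNIP3 and ANKRD37 counts as 2 overlapping matches, 1 on each strand.
BNIP3, chr10:131981968-131982173, minus strand: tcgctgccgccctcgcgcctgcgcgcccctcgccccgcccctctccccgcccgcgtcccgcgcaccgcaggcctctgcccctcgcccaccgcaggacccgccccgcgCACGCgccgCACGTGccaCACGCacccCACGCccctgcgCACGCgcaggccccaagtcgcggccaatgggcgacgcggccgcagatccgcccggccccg
ANKRD37, chr4:185396591-185396810, plus strand: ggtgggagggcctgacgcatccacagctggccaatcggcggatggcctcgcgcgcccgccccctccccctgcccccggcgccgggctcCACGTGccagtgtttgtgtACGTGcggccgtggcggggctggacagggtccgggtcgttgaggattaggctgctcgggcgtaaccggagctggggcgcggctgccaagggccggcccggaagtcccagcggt
DDIT4, chr10:72273705-72273918, plus strand: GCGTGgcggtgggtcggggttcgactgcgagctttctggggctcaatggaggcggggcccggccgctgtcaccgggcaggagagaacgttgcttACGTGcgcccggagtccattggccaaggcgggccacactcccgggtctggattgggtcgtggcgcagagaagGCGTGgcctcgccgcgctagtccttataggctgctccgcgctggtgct
CA9, chr9:35673900-35673924, plus strand: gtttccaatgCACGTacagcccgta
The window of ANKRD37 lies before the RefSeq start but inside the span that GENCODE gives the gene. The BNIP3 window carries 2 matches to ACGTG and 4 to GCGTG, that of ANKRD37 3 to ACGTG, and that of DDIT4 1 to ACGTG and 2 to GCGTG. ADM, HIF1A and EPAS1 have 1 GCGTG each. No match was found for EGLN3, which says only that these letters are not in this window.

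Of the 10 genes, 1 was called as different between the culture conditions: BNIP3 was lower in 3-D grown cells. None was called higher at an adjusted p below 0.05 (edgeR quasi-likelihood test, Benjamini-Hochberg adjustment over all tested genes), with 2 higher at an unadjusted p below 0.05, and none by DESeq2, with 1. Over all tested genes 7.9% were called by edgeR, 4.54% higher and 3.36% lower in 3-D, so 1 of 10 is near the background. At an unadjusted p below 0.05 stood 3 of the 10 genes and 21.3% of all tested genes. DESeq2 called BNIP3 too, and 1.88% of 42231 genes with a p-value, 1.21% higher and 0.672% lower. That share counts genes without an adjusted p, which DESeq2 could not call. Only 6 of the 10 genes had an adjusted p by DESeq2, with none for EPAS1, CA9, NDRG1 and ANKRD37. The 1.88% is therefore not a like background for them. The median log2 fold change of the 10 genes was 0.06, against -0.000135 over all tested genes, and 9 of 10 lay within 0.25 of 0 on the log2 scale. The libraries of the conditions did not overlap for 5 of the 10 genes, 3 higher and 2 lower in 3-D, where 50.5% of all tested genes do not overlap, 25.4% higher and 25.1% lower. Levels below are CPM, a library's count of a gene scaled to a common library size after TMM normalization, fold changes are log2 of 3-D over 2-D, and each mean is of 2 libraries.

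**Figure D1:**
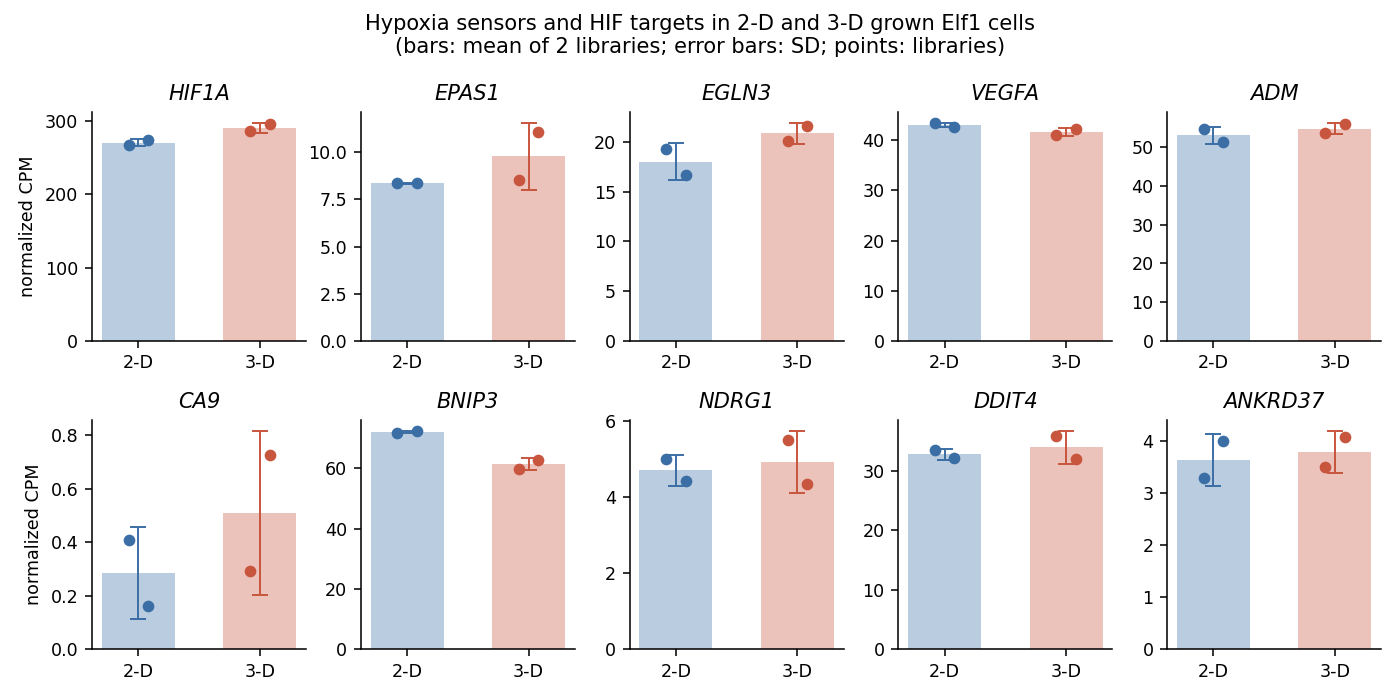
Level of each gene in every library, as normalized CPM on axes that start at 0, with bars at the mean of the 2 libraries of a condition, error bars of 1 SD and points for libraries (blue 2-D, red 3-D). BNIP3 was at 71.8 and 72.2 CPM in 2-D and 59.9 and 62.8 in 3-D, and none of the other 9 genes was called.

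HIF1A (ENSG00000100644.17, hg38 chr14:61695513-61748259, plus strand), the widely expressed α subunit, had 9188 and 8434 counts in 2-D and 5871 and 5302 in the less deeply sequenced 3-D libraries. After normalization these were 267 and 274 CPM in 2-D (270.2 ± 4.88, SD, n = 2) and 286 and 296 CPM in 3-D (291 ± 7.14, SD, n = 2). Both 3-D libraries were thus slightly above both 2-D libraries. The log2 fold change was 0.11 with a standard error (SE) of 0.03 and a 95% interval of 0.04 to 0.17, and it did not pass the test (adjusted p = 0.0655, edgeR). This call depended on the setting. Of the 9 other settings that kept all libraries, 2 called HIF1A higher and 7 did not. It was called with no filter on low counts (adjusted p = 0.0211, edgeR) but not by DESeq2 (adjusted p = 0.138). With library size as the only scaling, its log2 fold change was 0.04 (adjusted p = 0.519, edgeR). With 1 library left out, its log2 fold change ranged from 0.08 to 0.13.

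HIF1A-AS1, an antisense RNA on the opposite strand that shares 133 exon bases with HIF1A, was lower in 3-D grown cells. It was at 12.1 and 12.5 CPM in 2-D and 8.27 and 9.43 CPM in 3-D. Its log2 fold change was -0.48 (SE 0.10, adjusted p = 0.0114, edgeR), although DESeq2 gave an adjusted p of 0.0831. Whether counting used the strand is not given in the sources used here, so reads in the shared bases cannot be assigned to either gene with certainty. HIF1A-AS3, on the same opposite strand, had 2.06 to 3.21 CPM and a log2 fold change of -0.01 (adjusted p = 0.986, edgeR).

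EPAS1 (ENSG00000116016.14, chr2:46293667-46386697, plus strand) encodes HIF-2α, the α subunit best known from endothelial and other specialised cells. Its counts were 288 and 257 in 2-D and 175 and 198 in 3-D, or 8.36 and 8.34 CPM against 8.51 and 11.04 CPM. The libraries did not overlap, but 3-D replicate 1 lay close to the 2-D libraries and 3-D replicate 2 stood above. The log2 fold change of 0.22 (SE 0.12, 95% interval -0.05 to 0.49) was not called (adjusted p = 0.340, edgeR). It rested on 3-D replicate 2, being 0.40 (adjusted p = 0.0193, edgeR) without 3-D replicate 1 and 0.03 without 3-D replicate 2.

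EGLN3 (ENSG00000129521.14, chr14:33924227-34462774, minus strand), a prolyl hydroxylase that is itself a HIF target, had 666 and 514 counts in 2-D and 414 and 388 in 3-D. These were 19.3 and 16.7 CPM in 2-D and 20.1 and 21.6 CPM in 3-D. Both 3-D libraries were above both 2-D libraries, but the nearest pair across conditions lay closer together than the 2-D libraries did. Its log2 fold change was 0.21 (SE 0.09, 95% interval 0.02 to 0.40), with an unadjusted p of 0.0312 and an adjusted p of 0.179 (edgeR), so it was not called. Without 2-D replicate 2 the value was 0.11.

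VEGFA (ENSG00000112715.22, chr6:43770184-43786487, plus strand), the growth factor that drives blood vessel growth, had 1495 and 1317 counts in 2-D and 843 and 756 in 3-D. These were 43.4 and 42.7 CPM in 2-D and 41.0 and 42.2 CPM in 3-D, so the 3-D libraries were marginally lower. The log2 fold change was -0.05 (SE 0.05, adjusted p = 0.642, edgeR), with a 95% interval of -0.16 to 0.06. VEGFA shares 188 exon bases with an antisense RNA, ENSG00000272114, at 2.73 to 3.26 CPM.

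ADM (ENSG00000148926.10, chr11:10305073-10307397, plus strand) encodes adrenomedullin, a secreted vasodilator peptide. With 1882 and 1584 counts in 2-D and 1104 and 1002 in 3-D, it was at 54.6 and 51.4 CPM and at 53.7 and 55.9 CPM. The conditions overlapped. Its log2 fold change was 0.05 (SE 0.05, 95% interval -0.06 to 0.15, adjusted p = 0.651, edgeR).

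Of the 7 receptors of these 2 peptides, 6 were tested and 2 passed the test, both higher in 3-D. The share was 33.3%, against 7.9% called and 4.54% called higher over all tested genes. On 6 genes this difference was not tested. FLT1, a VEGF receptor, was at 100.07 and 103 CPM in 2-D and 113 and 109 CPM in 3-D, with a log2 fold change of 0.13 (SE 0.03, adjusted p = 0.0328, edgeR). NRP2, a co-receptor, was at 55.2 and 53.5 CPM in 2-D and 61.1 and 59.97 CPM in 3-D, with a log2 fold change of 0.15 (SE 0.04, adjusted p = 0.0400, edgeR). Neither was called by DESeq2, where the 2 had an unadjusted p below 0.05 and adjusted p-values of 0.223 and 0.282, and neither was called without 2-D replicate 1, 2-D replicate 2 or 3-D replicate 1. CALCRL, the adrenomedullin receptor, had 4 to 15 counts, its partner RAMP2 16 to 34, and RAMP3 at most 1. Of 6 markers of endothelial cells, the usual site of the VEGF receptors, TEK had 740 and 615 counts in 2-D and 424 and 380 in 3-D and did not pass the test (log2 fold change 0.01, adjusted p = 0.953, edgeR), and the 6 summed to 20.8 to 22.6 CPM in 2-D and 21.6 to 22.2 CPM in 3-D. The other 5, among them the defining markers PECAM1 and CDH5, had at most 15 counts in any library.

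CA9 (ENSG00000107159.13, chr9:35673928-35681159, plus strand), a membrane carbonic anhydrase that regulates pH and is among the most HIF-specific targets, was barely detected. Its counts were 14 and 5 in 2-D and 6 and 13 in 3-D, or 0.407 and 0.162 CPM against 0.292 and 0.725 CPM. The conditions overlapped and replicates differed more than conditions. The log2 fold change of 0.76 (SE 0.58) had a 95% interval of -0.49 to 2.02 (adjusted p = 0.511, edgeR), and its value without 1 library ranged from 0.01 to 1.58, so neither a rise nor a fall was detectable at this depth. CA9 also shares 35.7% of its exon bases with ARHGEF39 on the opposite strand, which was at 17.6 to 20.5 CPM, so even these few counts may not all be its own.

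BNIP3 (ENSG00000176171.11, chr10:131967684-131981967, minus strand) encodes a protein of the outer mitochondrial membrane that marks mitochondria for removal by autophagy. Its counts were 2472 and 2226 in 2-D and 1231 and 1126 in 3-D. Per library this was 71.8 and 72.2 CPM in 2-D (72.0 ± 0.323, SD, n = 2) and 59.9 and 62.8 CPM in 3-D (61.4 ± 2.06, SD, n = 2). The 2-D libraries were nearly equal and both 3-D libraries lay below them, by more than the gap between replicates. Normalized BNIP3 fell by 14.8% in 3-D, a log2 fold change of -0.23 (SE 0.04, 95% interval -0.32 to -0.15, adjusted p = 0.00300, edgeR). It was called lower under 13 of 13 other settings, DESeq2 and each left-out library included, with log2 fold changes from -0.30 to -0.20. Its exons overlap no other annotated exon, and the nearest copy, the pseudogene BNIP3P1 (97.4% identical over 657 bases), had 4 to 12 counts. BNIP3L, the related gene in the list of other targets below, had a log2 fold change of -0.0031 (adjusted p = 0.986, edgeR).

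The mitochondrial genome's share of all counts moved with the conditions too, at 5.30% and 5.10% for 2-D and 8.502% and 8.33% for 3-D grown cells. Another setting left genes of the mitochondrial genome, of histones and of ribosomal proteins out of the library sizes and did not apply TMM. There BNIP3 had a log2 fold change of -0.25 (adjusted p = 0.00277, edgeR). In bulk RNA, fewer cells that express a gene and less RNA per cell cannot be told apart.

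NDRG1 (ENSG00000104419.14, chr8:133237175-133302022, minus strand), a stress response gene that is induced in hypoxia, had 172 and 136 counts in 2-D and 113 and 78 in 3-D, or 4.99 and 4.41 CPM against 5.50 and 4.35 CPM. Its log2 fold change was 0.07 (SE 0.15, 95% interval -0.26 to 0.40, adjusted p = 0.852, edgeR). DDIT4 (ENSG00000168209.5, chr10:72273919-72276036, plus strand), also known as REDD1, restrains mTOR complex signalling under hypoxia and other stress. It had 1150 and 988 counts in 2-D and 737 and 573 in 3-D, or 33.4 and 32.1 CPM against 35.9 and 32.0 CPM, with a log2 fold change of 0.05 (SE 0.07, 95% interval -0.10 to 0.20, adjusted p = 0.736, edgeR). For both genes, 1 of the 3-D libraries was the highest and the other the lowest of the 4.

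ANKRD37 (ENSG00000186352.9, chr4:185396021-185400628, plus strand), a small ankyrin repeat protein known mainly as a HIF target, had 113 and 123 counts in 2-D and 72 and 73 in 3-D. These were 3.28 and 3.99 CPM against 3.50 and 4.07 CPM, and the conditions overlapped. Its log2 fold change was 0.06 (SE 0.17, 95% interval -0.31 to 0.42, adjusted p = 0.893, edgeR). ANKRD37 shares 40.3% of its exon bases with UFSP2 on the opposite strand, at 19.4 to 22.8 CPM, so its counts are uncertain. For ADM, NDRG1, DDIT4 and ANKRD37 the sign of the fold change was not stable, turning under library size as the only scaling or when 1 library was left out.

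**Figure D2:**
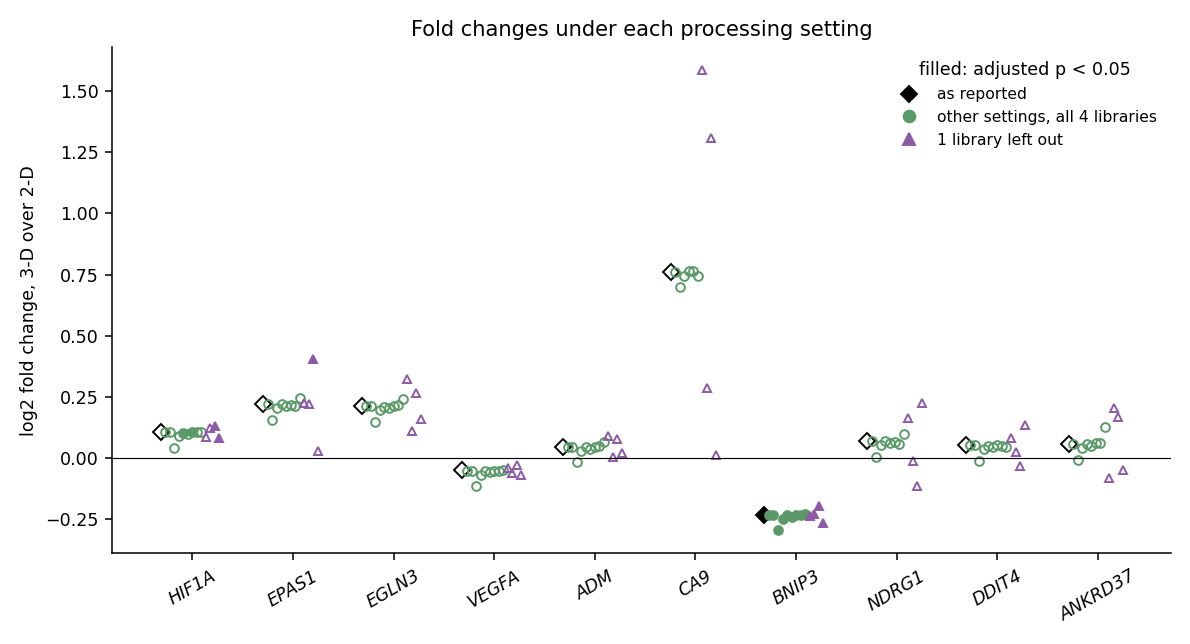
Log2 fold change of 3-D over 2-D for each gene (vertical axis, 0 marked) as reported (black diamonds), under other settings with all 4 libraries (green circles) and with 1 library left out (purple triangles), where filled symbols have an adjusted p below 0.05. BNIP3 is filled throughout, between -0.30 and -0.20, while CA9 spreads from 0.01 to 1.58.

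Levels were compared between genes per kilobase of exon. HIF1A was the highest, at a mean of 54.5 normalized CPM per kilobase over the 4 libraries, followed by ADM at 23.2, BNIP3 at 16.5 and DDIT4 at 15.7. VEGFA was at 2.93, EGLN3 at 2.64, ANKRD37 at 1.65, EPAS1 at 1.24, NDRG1 at 0.401 and CA9 at 0.248 on the same scale. The ranges over libraries overlapped for the neighbours BNIP3 and DDIT4, VEGFA and EGLN3, ANKRD37 and EPAS1, and NDRG1 and CA9, so these pairs were not ordered beyond their spread. With the length of the principal (MANE) transcript instead, BNIP3 stood above ADM (43.2 against 36.1 normalized CPM per kilobase) and of the neighbours only EPAS1 and NDRG1 overlapped. By CPM without regard to length, HIF1A was at the 97.4th percentile of the tested genes and CA9 at the 2.35th.

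**Figure D3:**
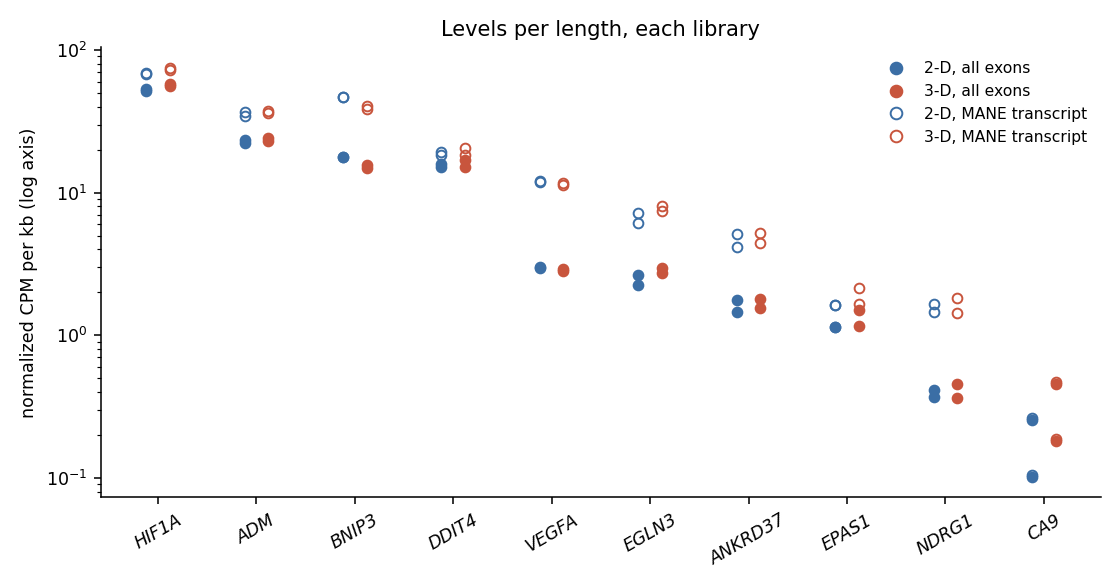
Level of each gene per kilobase in every library, as normalized CPM per kilobase on a log axis (blue 2-D, red 3-D, filled for the length of all exons, open for the MANE transcript). HIF1A is the highest at a mean of 54.5 and CA9 the lowest at 0.248 with all exons, and the 2 conditions lie close together for each gene but CA9, where replicates are far apart.

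The machinery around HIF was read from the same fit: 15 genes for the other subunits, the hydroxylases, the VHL ubiquitin ligase, the coactivators and a competitor of these. All 15 were tested, and 2 rose in 3-D and none fell by edgeR, with 2 lower at an unadjusted p below 0.05. None was called lower by DESeq2, with 0 lower at an unadjusted p below 0.05. The share called by edgeR was 13.3%, against 7.9% of all tested genes. The median log2 fold change was -0.02, with 5 positive and 10 negative. RBX1 and ELOC, subunits of the VHL ubiquitin ligase, had log2 fold changes of -0.19 (adjusted p = 0.0862) and -0.17 (adjusted p = 0.0871) by edgeR. Both were called lower with no filter on low counts and under scaling by library size alone, where 1 machinery gene was higher and 2 were lower. ELOC was also called lower without 3-D replicate 1, and RBX1 without 3-D replicate 2. Both genes that rose encode coactivators. CREBBP was at 189 and 181 CPM in 2-D and 227 and 227 CPM in 3-D, with a log2 fold change of 0.29 (SE 0.03, adjusted p = 0.000171, edgeR). EP300 was at 333 and 340 CPM in 2-D and 372 and 369 CPM in 3-D, with a log2 fold change of 0.14 (SE 0.03, adjusted p = 0.0138, edgeR), and was not called without 2-D replicate 1 or 2-D replicate 2, nor with library size as the only scaling (adjusted p = 0.165). CREBBP and EP300 act with many transcription factors besides HIF, and both are among the genes the study singled out on these samples, so their count is not independent evidence.

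**Figure D4:**
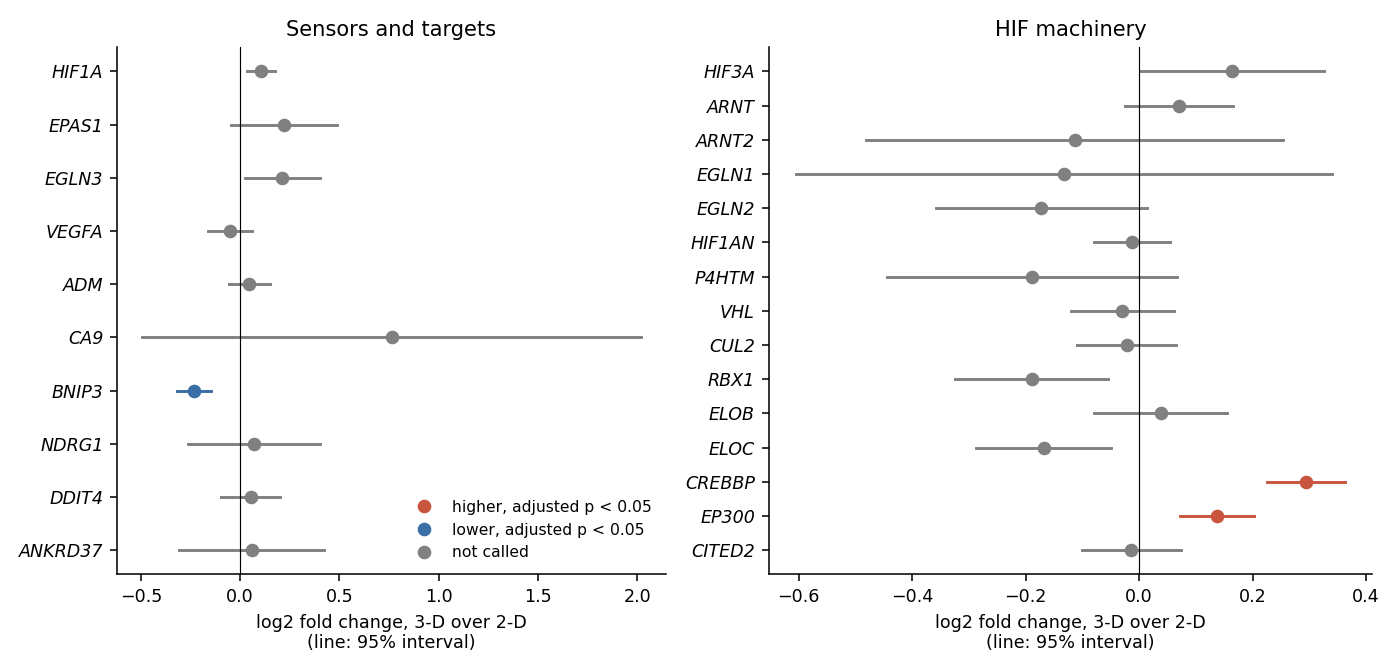
Log2 fold change of 3-D over 2-D (points) with its 95% interval (lines) for the 10 sensors and targets on the left and the 15 machinery genes on the right, which have different horizontal scales. BNIP3 (blue) is the gene called lower at -0.23, CREBBP and EP300 (red) are called higher at 0.29 and 0.14, and the other genes (grey) were not called.

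A list of 48 other HIF targets, drawn from glycolysis, glucose uptake, collagen modification, iron and mitochondrial genes, showed no common direction. Of 45 tested, 2 rose and 4 fell, for 13.3% called against 7.9% of all tested genes. At an unadjusted p below 0.05 by edgeR stood 14 of the 45, 8 higher and 6 lower, against 21.3% of all tested genes. Of the 45 fold changes 22 were positive and 23 negative, and the median was -0.0031. The split was 1 higher and 6 lower under scaling by library size alone, and 7 higher and 4 lower without 3-D replicate 1. COX4I2, EPO and BHLHE41 had too few counts to test, with at most 9 in any library. The 3 reporters of glucose use that were chosen after their values were seen were not called by edgeR. The transporter SLC2A1 had a log2 fold change of 0.07 (unadjusted p = 0.0361, adjusted p = 0.193, edgeR). PGK1 had -0.06 (unadjusted p = 0.0811, adjusted p = 0.308) and LDHA 0.07 (unadjusted p = 0.0454, adjusted p = 0.222), by edgeR. Not called by edgeR either were TPI1 (log2 fold change 0.09), GAPDH (0.08) and PFKFB4 (-0.26), each at an unadjusted p below 0.05. With no filter on low counts, TPI1 and GAPDH were called higher. Under scaling by library size alone PGK1 was called lower, and without 3-D replicate 1 SLC2A1 was called higher.

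The 2 targets that rose were LOX and PLOD1. LOX, which cross-links collagen, had 85 and 83 counts in 2-D and 96 and 85 in 3-D, or 2.47 and 2.69 CPM against 4.67 and 4.74 CPM, a log2 fold change of 0.87 (SE 0.16, adjusted p = 0.00458, edgeR). It shares 138 exon bases with SRFBP1 on the opposite strand, at 42.0 to 45.4 CPM, so these low counts carry some uncertainty. PLOD1, a lysyl hydroxylase of collagen, was at 45.6 and 45.01 CPM in 2-D and 52.1 and 53.4 CPM in 3-D, with a log2 fold change of 0.22 (SE 0.05, adjusted p = 0.0114, edgeR), and was not called by DESeq2 (adjusted p = 0.0920) or without 2-D replicate 2. The other collagen-modifying genes of the list, PLOD2 (log2 fold change -0.03, adjusted p = 0.763), P4HA1 (-0.09, adjusted p = 0.389) and P4HA2 (0.06, adjusted p = 0.835), were not called by edgeR. Of 4 fibroblast markers tested, COL1A1 (log2 fold change 0.29) and COL3A1 (0.73) were also called higher by edgeR. The share was 50%, against 7.9% of all tested genes. COL1A2 (-0.04) and PDGFRB (0.02, adjusted p = 0.961, edgeR) were not called. DCN had at most 6 counts and LUM 3 to 17. The fibroblast list summed to 454 to 461 CPM in 2-D and 462 to 504 CPM in 3-D over its 6 genes, and its part in the LOX and PLOD1 values was not tested.

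Of the targets that fell, TFRC, the transferrin receptor for iron uptake, was at 278 and 282 CPM in 2-D and 244 and 247 CPM in 3-D, with a log2 fold change of -0.19 (SE 0.03, adjusted p = 0.00209, edgeR). INSIG2, a regulator of sterol synthesis, was at 11.5 and 12.3 CPM in 2-D and 9.49 and 8.98 CPM in 3-D (log2 fold change -0.36, SE 0.10, adjusted p = 0.0380, edgeR). HIGD1A, a mitochondrial protein, was named after its values were seen and had a log2 fold change of -0.17 (adjusted p = 0.0316, edgeR). By DESeq2 neither INSIG2 (adjusted p = 0.249) nor HIGD1A (adjusted p = 0.236) was called, while TFRC was. INSIG2 was also not called without 2-D replicate 1, 2-D replicate 2 or 3-D replicate 2, nor HIGD1A without 2-D replicate 1, 2-D replicate 2 or 3-D replicate 1. ALDOA, a glycolytic enzyme, had only 290, 227, 112 and 58 counts and a log2 fold change of -0.85 (SE 0.18, adjusted p = 0.0131, edgeR), ranging from -1.29 without 3-D replicate 1 to -0.53 without 3-D replicate 2. It shares 42.8% of its exon bases with a readthrough gene on the same strand, ENSG00000285043, so its counts are uncertain.

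DDIT4 and VEGFA also answer to ATF4, the transcription factor of the integrated stress response, so 8 genes of that response were read beside them. Of these, 2 rose and none fell by edgeR, with 1 lower at an unadjusted p below 0.05. None was called lower by DESeq2, with 1 lower at an unadjusted p below 0.05. The share called by edgeR was 25%, against 7.9% of all tested genes, while 5 of 8 fold changes were negative and the median was -0.11. ATF4 was at 298 and 291 CPM in 2-D and 325 and 321 CPM in 3-D (log2 fold change 0.14, SE 0.03, adjusted p = 0.0161, edgeR). PPP1R15A, the phosphatase subunit that ends the response, was at 22.4 and 20.4 CPM in 2-D and 25.8 and 25.4 CPM in 3-D (log2 fold change 0.26, SE 0.07, adjusted p = 0.0478, edgeR). PPP1R15A was not called by DESeq2 (adjusted p = 0.217) or without 3-D replicate 1, ATF4 was not called without 2-D replicate 1, and without 2-D replicate 2 neither was called. DDIT3, which encodes the stress factor CHOP, had the lowest log2 fold change of the 8, at -0.40 (SE 0.12, adjusted p = 0.0733, edgeR), from 14.3 and 13.5 CPM in 2-D and 12.2 and 8.76 CPM in 3-D. It was called lower with no filter on low counts and when either 2-D replicate 2 or 3-D replicate 1 was left out. Under scaling by library size alone it was again called lower, and none of the 8 was called higher.

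**Figure D5:**
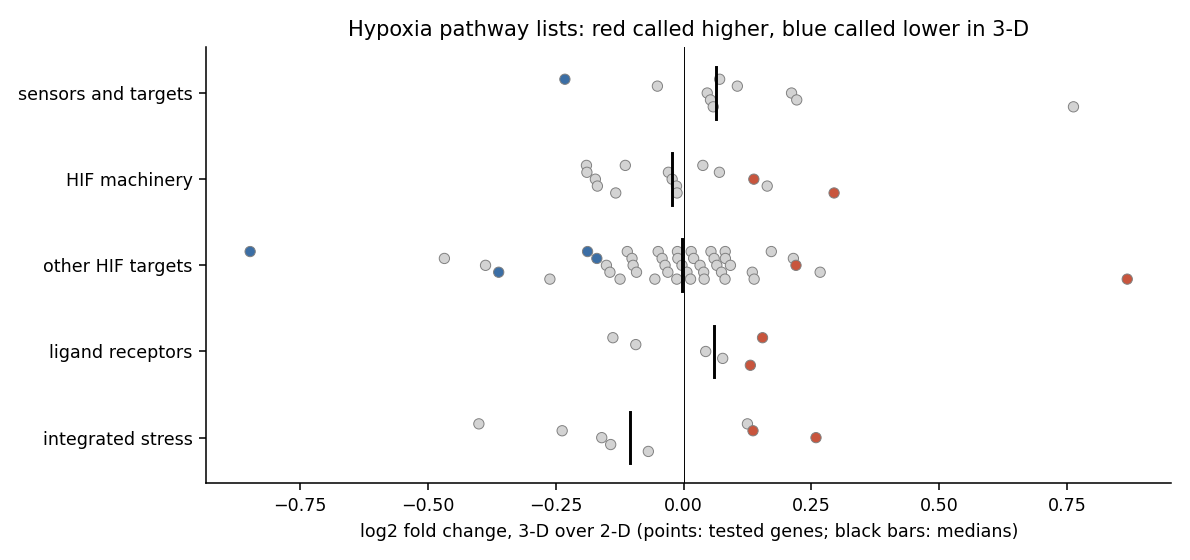
Log2 fold change of 3-D over 2-D of each tested gene (points) in the 10 sensors and targets and 4 lists around them, with a black bar at the median of each list. Red points were called higher and blue points lower in 3-D, and the medians lie between -0.11 and 0.06.

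The libraries held 30114220 to 33833778 counts in 2-D and 18276147 to 21154409 in 3-D. Markers of pluripotent cells were abundant in each library, with the 7 core genes summing to 4077 to 4176 CPM, and none of the 7 was called (edgeR, with 4 at an unadjusted p below 0.05). Of 7 markers of the naïve state, ZFP42 had 2750 to 5629 counts while KLF17 had 16 to 29 and DPPA5 at most 4, and none of the 6 tested was called (edgeR, with 0 at an unadjusted p below 0.05). Of 6 markers of the primed state, SFRP2 (log2 fold change 0.28) and THY1 (0.22) were called higher.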

How the data were processed

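RNA of Elf1 cells was measured by RNA-seq in 2-D and 3-D culture, with 2 libraries each, described by the study as independent biological replicates. The authors depleted ribosomal RNA, sequenced paired ends, trimmed with Trim Galore 0.6.3, mapped to hg38 with HISAT2 2.1.0 and counted reads on the genes of GENCODE release 30 with featureCounts 1.6.4. As deposited, counts are whole, not normalized and separate for each library. The deposited normalized values are a signal, each count divided by 1 size factor per library by the authors with DESeq2 2.11.40.6. The same table holds the authors' comparison (base mean, log2 fold change, standard error, Wald statistic, p and adjusted p), which was not used. Of 60564 identifiers, 60295 were matched to GENCODE release 44 on hg38 for names, positions and lengths, and the 269 others held 0.122% of counts.

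Counts were fitted with edgeR 4.0.16 in R 4.3.3 (TMM, filterByExpr, quasi-likelihood test in legacy mode, condition alone, all 4 libraries), with Benjamini-Hochberg adjustment over 22555 genes and calls below 0.05. The standard error is the size of the log2 fold change over the square root of F. The common biological coefficient of variation was 5.10%. Counts of the 2 libraries of a condition differed by more than sampling noise (chi-square over degrees of freedom 2.45 in 2-D and 4.39 in 3-D). This check cannot tell separate cultures from separate preparations of the same culture. Each library was kept as a replicate on the study's description. Intervals cover the spread between these libraries only, with the estimate for each gene moderated by that of the other tested genes. The procedures were tested on simulated data. Copies were sought with minimap2 2.31-r1302. Promoter windows and cores come from RefSeq GRCh38.p14 and were searched on both strands.

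The genes and lists were chosen with earlier results of these data known. The text names all 10 sensors and targets, up to 3 called genes per direction of each list and genes that overlap a member. Named outside this rule, after their values were seen, were markers, untested and low-count genes. The others so named were BNIP3L, HIGD1A, SLC2A1, PGK1, LDHA, TPI1, GAPDH, PFKFB4, PLOD2, P4HA1, P4HA2, RBX1, ELOC and DDIT3. Alternatives were DESeq2 1.42.0, its size factors in edgeR and scaling by library size alone. Another used library sizes without genes of the mitochondrial genome, histones and ribosomal proteins, and no TMM. Further ones were no filter (1 count or more), a minimum of 10 counts per library and the replicate number as a block. The last were limma-trend (limma 3.58.1) on log2(normalized value + 1), 2-D counts thinned to the 3-D depth, and each library left out.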

Additional observations from a re-analysis of the deposited data

How the results depend on the processing

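BNIP3 was called lower under 13 of 13 alternatives (9 with all libraries and 4 with 1 left out), with adjusted p-values from 2.00e-05 to 0.0273. Of 124 values of the 10 genes under the alternatives, 111 kept their direction and their side of the threshold, 5 passed it newly (4 of HIF1A, 1 of EPAS1) and 8 changed sign. With library size as the only scaling, the log2 fold changes of ADM, ANKRD37 and DDIT4 became -0.018, -0.0064 and -0.012, and the median of all tested genes moved from -0.000135 to -0.06. With 1 library left out, the log2 fold change ranged from -0.11 to 0.22 for NDRG1, from -0.081 to 0.20 for ANKRD37 and from -0.033 to 0.13 for DDIT4, where the lone library of a condition was assumed to vary like the others.

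The number of the 10 genes called was 2 with no filter on low counts and 1 to 3 with 1 library left out (3 without 3-D replicate 1, 2 without 3-D replicate 2). Of the HIF machinery, 4 were called with no filter and 1 to 3 with 1 library left out (1 without either 2-D replicate), with 2 lower with no filter or library size only. Of the other HIF targets, 1 was called by DESeq2, which gave no adjusted p for LOX and ALDOA, and 3 to 11 with 1 library left out (11 without 3-D replicate 1, as 7 higher and 4 lower, and 3 without 2-D replicate 2, as 1 higher and 2 lower). Of the receptors, 0 were called by DESeq2 (2 at an unadjusted p below 0.05), 0 with library size only (0), 0 with library sizes without genes of the mitochondrial genome, histones and ribosomal proteins (2) and 0 by limma-trend (3), 1 was called with the 2-D counts thinned, and 0 to 3 with 1 library left out. Of the integrated stress genes, 1 was called by DESeq2, with library size only, with library sizes without the named gene groups and with at least 10 counts in every library, and 1 to 2 with 1 library left out. These were 1 higher without 2-D replicate 1, 1 lower (DDIT3) without 2-D replicate 2, 1 in each direction without 3-D replicate 1 and 2 higher without 3-D replicate 2, and with library size only the call was also DDIT3, lower. With no filter 3 were called, 2 higher and DDIT3 lower. Over all genes, 795 were called by DESeq2, 974 to 2643 with 1 library left out, and 2393 with library size only, as 514 higher and 1879 lower against 1024 higher and 758 lower. With library sizes without the named gene groups the split was 805 higher and 907 lower. The cause of these moves was not tested.

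With the replicate number as a block, 2 of the 10 genes were called, the second being HIF1A (adjusted p = 0.0470, edgeR), and 2167 of all genes. DDIT3 was called lower under the block, with 3 of the integrated stress genes called in all. Libraries with the same number did not deviate together (correlation of deviations -0.0079), and no source says that a number marks a shared culture. CA9 gave no value with at least 10 counts in every library or with thinned counts and no adjusted p by DESeq2, nor did EPAS1, NDRG1 and ANKRD37 by DESeq2. Depth limits CA9, with 5 to 14 counts per library, and the adrenomedullin receptors.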
